A study of Mus musculus with 40 samples.

Results

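Mature mice were compared between 14 and 5 days post-resection (dpr) of a rib, by bulk RNAseq of the callus that forms in the gap. The libraries were all those of mature mice at these stages with a column in the table of filtered counts, namely replicates 1 to 4 at 14dpr and replicates 1, 3 and 4 at 5dpr, and all 21204 genes of that table were tested. These are 7 of the 39 libraries with counts, in a series of 40 samples. Replicate 2 at 5dpr has no column and was not analysed here. The mice of both groups carried the Wild Type genotype, were older than 10 months and had no treatment beside the resection. They were C57BL/6 females. The study removed 3 mm of rib from immature and mature mice and collected tissue at baseline and at 0, 2, 5 and 14dpr, to ask how skeletal maturity changes repair. The labels call the tissue a composite of bone and intercostal muscle, and also name bone marrow.

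A fracture callus usually passes from an inflamed clot through fibrous tissue and cartilage to bone, which osteoclasts then remodel. Muscle torn at the same time repairs itself from satellite cells, which divide, fuse and pass through a set of embryonic contractile proteins before adult fibres return. Early in repair cell growth and fusion usually prevail, and later matrix formation and mineral deposition.

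Total counts were 11345552, 20136183 and 13764053 in the 5dpr replicates 1, 3 and 4, and 8430285, 8754263, 8751329 and 9087417 in the 14dpr replicates 1 to 4. Every 14dpr library was thus shallower than every 5dpr library (exact two-sided permutation test, p = 0.0286, the smallest that 35 assignments can give). With the 7 libraries thinned to the smallest total, a choice made after seeing the data, 788 genes differed between the stages, beside 886 at full depth. Levels are given in CPM after scaling by TMM, which sets every library to the same effective total, in the order of the replicates, and groups as mean ± SD with n = 3 at 5dpr and n = 4 at 14dpr and baseline. The test was edgeR's quasi-likelihood fit of all 39 libraries with a term for each of 10 groups, and a gene was called when its p-value, adjusted over all genes, was under 0.05. The labels do not say whether each library came from a separate animal, so p-values measure the spread between these samples.

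Of all libraries of the series, mature 2dpr replicate 3 stood apart, with 14214 genes detected against 19068 to 20823 in the other libraries. It is in neither group compared, but it enters the spread that the fit shares over groups. Without it, a choice made after seeing the data, the number of called genes rose from 886 to 1564, of which 697 were higher and 867 lower at 14dpr. All 886 genes were among them in the same direction.

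Genes of the labelled tissues were present at both stages. Col1a1, the main chain of collagen I, was at 8439 ± 484 CPM at 5dpr and 16582 ± 4826 CPM at 14dpr. Fibroblasts make it as well as osteoblasts, so it does not mark bone alone. Osteocalcin (Bglap), a product of mature osteoblasts, was at 27.2 ± 26.9 and 74.3 ± 28.3 CPM. For muscle, the creatine kinase Ckm was at 1446 ± 415 and 1362 ± 403 CPM and skeletal actin (Acta1) at 5945 ± 1296 and 3758 ± 1304 CPM. Col1a1, Ckm and Acta1 were therefore far above 0 in both groups. The SD of Bglap at 5dpr was close to its mean, so the bone content at that stage stays uncertain. None of these 4 genes was called. Macrophages were marked by Adgre1, at 387 ± 70.0 and 373 ± 53.4 CPM, and endothelium by Pecam1, at 182 ± 14.2 and 243 ± 20.5 CPM. Red cell precursors of the marrow were marked by the globin Hbb-bs, which stood at 1711 ± 425 and 1055 ± 683 CPM, below its baseline of 10630.4 ± 2172 CPM. The T cell gene Cd3e was scarce, at 0.493 ± 0.278 and 1.60 ± 0.766 CPM. Pecam1 was not called (adjusted p = 0.0698, edgeR), but it was with DESeq2 (adjusted p = 0.00867), with RLE size factors (adjusted p = 0.0336), with edgeR's own filter (adjusted p = 0.0415), in a fit of the compared libraries alone (adjusted p = 0.0284), with the sarcomere covariate (adjusted p = 0.0432) and without mature 2dpr replicate 3 in the fit (adjusted p = 0.0364). In bulk tissue, fewer cells of a type and less RNA per cell cannot be told apart.

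Between 5 and 14dpr, 886 of 21204 genes (4.18%) were called, with 414 (1.95%) higher and 472 (2.23%) lower at 14dpr. With RLE factors 471 were higher and 378 lower, so the direction with more calls depends on the setting. The median log2 fold change of all genes, as 14dpr over 5dpr, was -0.02. At an unadjusted p under 0.05 there were 3905 genes. The libraries of the stages did not overlap for 5437 genes (25.6%), which included 396 of the genes called higher and 458 of those called lower. A change of more than 1 on the log2 scale was seen for 523 called genes, 263 of them higher and 260 lower. With a library left out, the count fell from 886 to 547 without 14dpr replicate 1, 579 without 14dpr replicate 3, 518 without 5dpr replicate 1, 409 without 5dpr replicate 3 and 417 without 5dpr replicate 4. In every one of the 7 fits that left out a library, 129 genes stayed higher and 141 stayed lower.

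**Figure D1:**
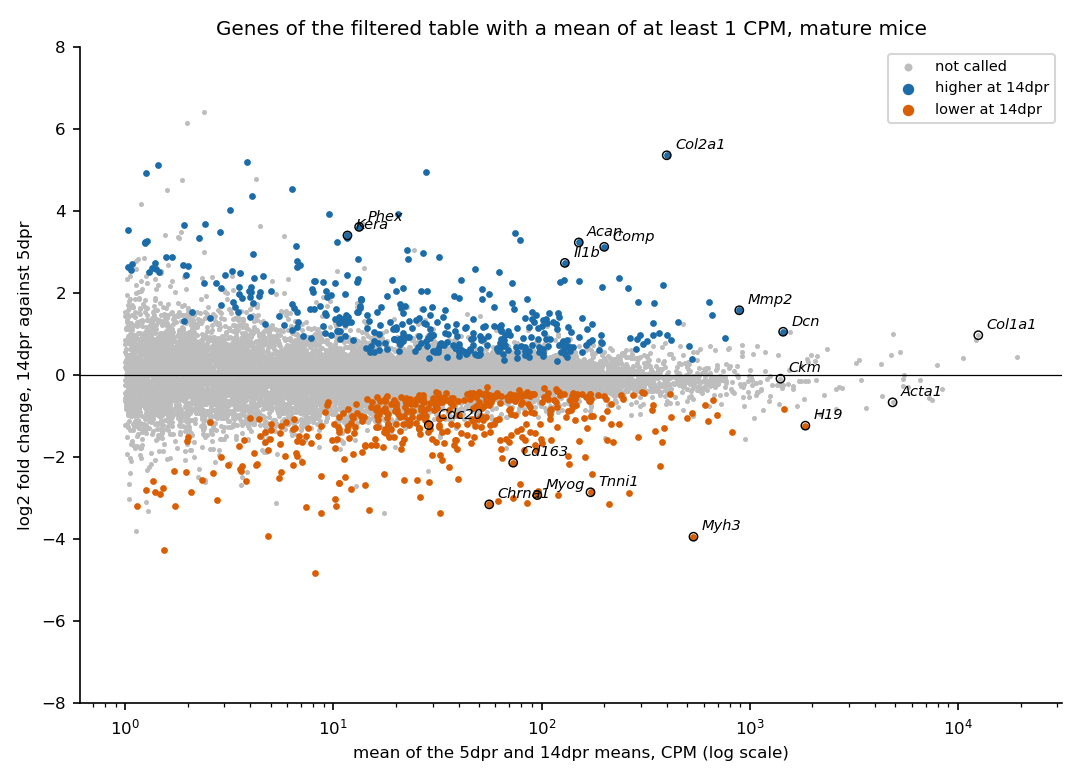
Log2 fold change of each gene (14dpr over 5dpr, mature mice) against its mean level (CPM, log axis), for genes with a mean of at least 1 CPM, with called genes in colour, a set of named genes marked and 1 gene past the axis limits left out. Myh3 lies at -3.94 and Cilp2 at 3.94, and the bulk of genes lies near the median of -0.02.

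Genes of known roles were put in 30 lists, and the plot of all lists sets their calls and medians side by side. The lists and their members were chosen with earlier results of these data known. Their counts and medians therefore describe the listed genes and are not tests of the lists. Each count of called members is to be read beside the 1.95% of all genes called higher and the 2.23% called lower. The lowest median log2 fold change belonged to muscle regeneration (-2.90) and the highest to cartilage (2.79, or 2.53 with Ihh, at 0 counts at 5dpr, held at its lower bound). Lists for tendon (2.27), osteoblasts and osteocytes (1.70), B cells (1.70) and small leucine-rich proteoglycans (1.22) also lay above 1. The adipocyte list (-1.02) lay below -1, and the cell cycle list was close to it (-0.93).

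**Figure D2:**
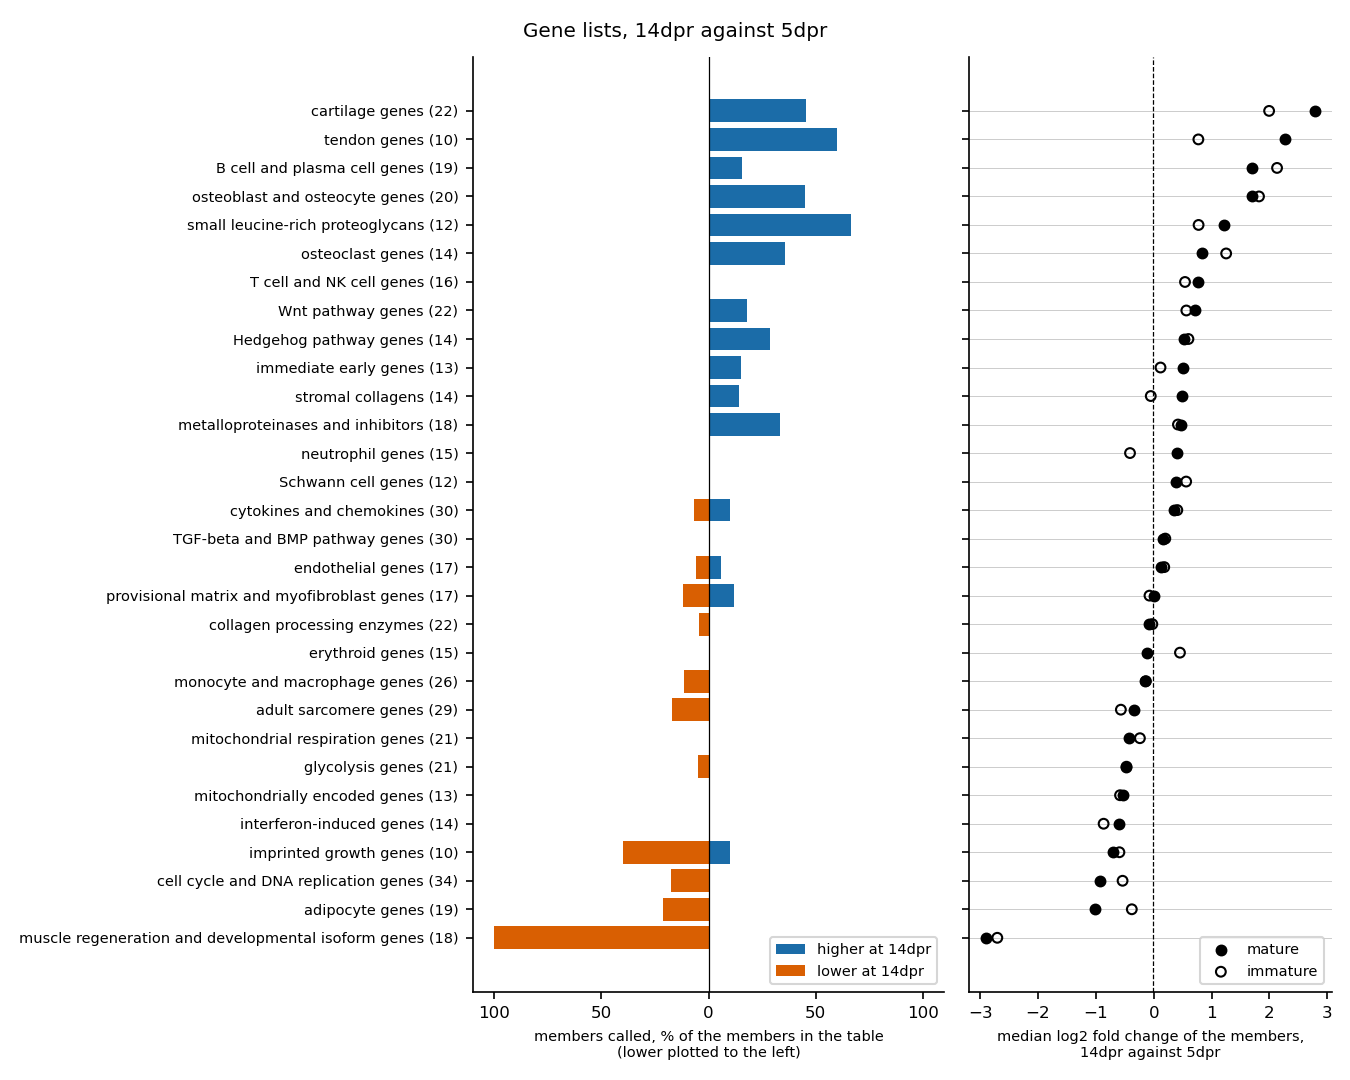
For 30 gene lists, the share of members called higher or lower at 14dpr in mature mice (left, percent) and the median log2 fold change (right) in mature (filled) and immature (open) mice, with a dashed line at the median of all genes. Muscle regeneration has 100% of members lower, and cartilage has the largest median in mature mice, 2.79.

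Muscle repair gave the clearest change. After injury, satellite cells become myoblasts under the control of myogenin, fuse through the membrane proteins myomaker and myomixer, and form young fibres that use embryonic myosin and the fetal acetylcholine receptor. These genes are shut off as a fibre matures and receives its nerve. All 18 listed genes of muscle regeneration and developmental isoforms were called lower at 14dpr, against 2.23% of all genes, and leaving out a library gave 17 or 18. Their summed level was 2097, 3467 and 4622 CPM at 5dpr and 542, 594, 413 and 418 CPM at 14dpr, beside 174 ± 13.6 CPM at baseline. Every 14dpr library lay below every 5dpr library, and none had returned to the baseline level. Embryonic myosin heavy chain (Myh3, ENSMUSG00000020908), on chromosome 11 from 67078300 to 67102291 of GRCm38, stood at 563, 1069 and 1391 CPM at 5dpr and at 91.7, 75.6, 46.8 and 48.9 CPM at 14dpr. The groups did not overlap, and among the 5dpr libraries replicate 1 was the lowest. Myh3 was 15.3-fold lower at 14dpr (log2 fold change -3.94, standard error 0.443, adjusted p = 6.39e-07, edgeR), and its baseline was 10.4 ± 2.61 CPM.

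Myogenin (Myog, ENSMUSG00000026459), the factor that commits myoblasts to fusion, was at 152, 167 and 187 CPM at 5dpr and at 23.5, 24.4, 23.0 and 18.2 CPM at 14dpr. Both groups were tight, with the change far larger than the spread within either (log2 fold change -2.92, standard error 0.296, adjusted p = 6.89e-08, edgeR). The fusion protein myomaker (Mymk) went from 41.3, 56.3 and 79.9 CPM to 5.91, 6.48, 5.13 and 5.71 CPM (log2 fold change -3.35, standard error 0.526, adjusted p = 0.000114, edgeR), and its partner myomixer (Mymx) from 17.0, 18.3 and 20.6 CPM to 2.65, 2.35, 2.12 and 1.04 CPM (log2 fold change -3.19, standard error 0.638, adjusted p = 0.00237, edgeR). All 14dpr libraries held under 7 CPM of either fusion gene. The alpha subunit of the acetylcholine receptor (Chrna1, ENSMUSG00000027107) stood at 86.3, 99.3 and 117 CPM at 5dpr and at 10.6, 10.9, 11.7 and 12.2 CPM at 14dpr (log2 fold change -3.15, standard error 0.309, adjusted p = 5.69e-08, edgeR). The fetal gamma subunit (Chrng) gave 22, 26.5 and 32.6 CPM and 4.46, 2.01, 2.01 and 2.6 CPM (log2 fold change -3.29, standard error 0.601, adjusted p = 0.000817, edgeR). Receptor subunits of both kinds were separated between stages in every library. Cardiac actin (Actc1), which young skeletal fibres also make, went from 179, 405 and 554 CPM to 36.2, 49.2, 45.7 and 41.4 CPM (log2 fold change -3.14, standard error 0.445, adjusted p = 2.36e-05, edgeR), and cardiac troponin T (Tnnt2), another fetal isoform, from 112, 141 and 204 CPM to 19.8, 25.1, 11.4 and 13.8 CPM (log2 fold change -3.12, standard error 0.425, adjusted p = 1.15e-05, edgeR). Ankrd1, a stretch-responsive protein of the sarcomere, stood at 96.3, 112 and 123 CPM and then at 10.2, 17.1, 10.8 and 14.4 CPM, and had the smallest adjusted p of the genes described here (log2 fold change -3.07, standard error 0.243, adjusted p = 3.09e-10, edgeR). M-cadherin (Cdh15), which marks satellite cells and myoblasts, was at 42.5, 43.6 and 43.3 CPM at 5dpr and at 8.92, 8.16, 6.46 and 6.02 CPM at 14dpr (log2 fold change -2.55, standard error 0.298, adjusted p = 9.78e-07, edgeR). Its 14dpr values were also below the baseline of 13.6 ± 1.69 CPM.

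Promoters of Chrna1 and Chrng are shown because both genes are receptor subunits that moved together, and because the windows hold a myogenic E box. The 300-base windows around each gene's start were taken from RefSeq (GRCm38.p6) in the gene's orientation, for Chrna1 at chr2:73580289-73580588 on the minus strand and for Chrng at chr1:87205561-87205860 on the plus strand, with the letters CAGCTG in capitals. This motif reads the same on both strands. It was found in 16.3% of all 32851 promoters, in 4 of 14 windows (28.6%) from 13 of the 18 muscle regeneration genes and in 13 of 29 windows (44.8%) from 23 of the 29 adult sarcomere genes, a search added after the values had been seen. A match is a description of these letters and not a measured binding site.
Chrna1: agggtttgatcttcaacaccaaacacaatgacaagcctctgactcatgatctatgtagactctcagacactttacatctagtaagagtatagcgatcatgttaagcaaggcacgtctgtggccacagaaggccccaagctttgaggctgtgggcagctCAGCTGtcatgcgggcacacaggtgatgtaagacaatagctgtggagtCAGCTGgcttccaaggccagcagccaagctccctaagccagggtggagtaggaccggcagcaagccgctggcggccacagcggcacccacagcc
Chrng: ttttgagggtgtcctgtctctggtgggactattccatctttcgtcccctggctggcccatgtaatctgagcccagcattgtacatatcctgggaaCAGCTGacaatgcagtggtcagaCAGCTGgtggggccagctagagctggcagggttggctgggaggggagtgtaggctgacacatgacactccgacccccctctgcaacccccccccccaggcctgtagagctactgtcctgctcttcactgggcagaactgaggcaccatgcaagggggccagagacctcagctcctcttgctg

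Most genes of adult muscle were not called. Mature fibres hold fixed sets of myosin, troponin and Z-disc proteins, and the troponins of slow fibres are also made for a time by regenerating fibres. Of 29 adult sarcomere genes, 5 were lower and 0 higher, against 2.23% of all genes called lower, with a median log2 fold change of -0.35. Their sum was 24363, 39174 and 54968 CPM at 5dpr and 23581, 41713, 36031 and 23704 CPM at 14dpr, with baseline at 75200.4 ± 26036 CPM. The stages overlapped, and within each stage the libraries differed by more than 1.5 times, and the part of muscle content in the other results was not tested beyond the fit with this list as a covariate. The list's most abundant gene was Ttn (mean 8239 CPM), the giant spring of the sarcomere, at 5224, 8879 and 14054 CPM and then 6222, 10057, 7939 and 5297 CPM. The 5 called genes were the slow troponins Tnnc1, Tnni1 and Tnnt1, the Z-disc protein Ldb3 and the slow myosin-binding protein Mybpc1. Slow troponin I (Tnni1) stood at 212, 332 and 362 CPM at 5dpr and at 29.4, 62.5, 40.1 and 35 CPM at 14dpr (log2 fold change -2.85, standard error 0.346, adjusted p = 1.51e-06, edgeR). No 14dpr library reached the lowest 5dpr value. Slow troponin C (Tnnc1), which is shared with the heart, went from 123, 189 and 192 CPM to 15.3, 36.4, 27.3 and 16.3 CPM (log2 fold change -2.82, standard error 0.328, adjusted p = 9.74e-07, edgeR). Fast myosin (Myh4) showed the other face of the tissue, at 852, 1923 and 2509.6 CPM and 1677, 3553, 2809 and 1665 CPM with overlapping groups and no call (log2 fold change 0.46, standard error 0.358, adjusted p = 0.528, edgeR) except with the sarcomere covariate (adjusted p = 3.63e-05). The sarcomere count of 5 was 3 without 14dpr replicate 4 or 5dpr replicate 3, and 10 with the sarcomere list as a covariate, 8 with DESeq2 and 3 with RLE size factors. As that covariate is the list's own level, it turned the median to 0.19 and left 11 of 29 changes below 0.

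Myostatin (Mstn), a secreted brake on muscle growth made by fibres, went the other way. It stood at 4.06, 5.99 and 5.10 CPM at 5dpr and at 16.3, 12.5, 18.7 and 14.3 CPM at 14dpr, with 18.1 ± 5.76 CPM at baseline. Every 14dpr library was above every 5dpr library, and the gene was called higher (log2 fold change 1.60, standard error 0.319, adjusted p = 0.00192, edgeR).

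Most energy genes were not called. Mitochondrial respiration makes most ATP of resting muscle, and glycolysis serves fast fibres and dividing cells. Of 21 nuclear genes of mitochondrial respiration, 0 were called in edgeR and 13 had an unadjusted p under 0.05, with 20 log2 fold changes below 0 and a median of -0.43. Atp5b, a catalytic subunit of ATP synthase, was at 1114, 1146 and 1246 CPM at 5dpr and at 702, 822, 878 and 845 CPM at 14dpr. The groups did not overlap but the change was not called (log2 fold change -0.53, standard error 0.161, adjusted p = 0.0545, edgeR), though it was with DESeq2 (adjusted p = 0.0307), in a fit of the compared libraries alone (adjusted p = 0.0251) and without mature 2dpr replicate 3 in the fit (adjusted p = 0.0376). For the respiration list the count of 0 was 11 in a fit of the compared libraries alone, 3 without mature 2dpr replicate 3 in the fit and 1 with DESeq2. All 13 mitochondrially encoded genes had negative values with 0 calls in edgeR, 6 at an unadjusted p under 0.05 and a median of -0.52. With the sarcomere covariate 3 of them turned positive, and the count of 0 was 5 in a fit of the compared libraries alone or without mature 2dpr replicate 3 in the fit and 1 with DESeq2. The cytochrome oxidase subunit mt-Co1 was at 5446, 6882 and 8158 CPM and 5063, 7747, 6333 and 5862 CPM, with overlapping groups. Among 21 glycolysis genes, 1 was called lower, the isomerase Tpi1, at 585, 802 and 906 CPM and 427, 481, 490.4 and 439 CPM (log2 fold change -0.74, standard error 0.201, adjusted p = 0.0292, edgeR), against 2.23% of all genes called lower. The median was -0.49, and all 21 changes were negative, apart from 1 with RLE factors, DESeq2, edgeR's own filter or the full table and 2 with the sarcomere covariate. The call for Tpi1 was lost without 14dpr replicate 1 (adjusted p = 0.0821), without 14dpr replicate 2 (adjusted p = 0.0531), without 14dpr replicate 3 (adjusted p = 0.0509), without 14dpr replicate 4 (adjusted p = 0.0667), without 5dpr replicate 3 (adjusted p = 0.111) or without 5dpr replicate 4 (adjusted p = 0.178), and with the full table (adjusted p = 0.0549) and with the sarcomere covariate (adjusted p = 0.102), and the glycolysis count of 1 was 7 in a fit of the compared libraries alone, 2 with DESeq2 or without mature 2dpr replicate 3 in the fit and 0 with the full table or with the sarcomere list as a covariate.

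The cartilage list had the highest median, with calls that depended on single libraries. Chondrocytes make a gel of collagen II and aggrecan under the control of Sox9, and those of a callus later enlarge, secrete Indian hedgehog (Ihh) and give way to bone. Of 22 cartilage genes, 10 were higher and 0 lower, against 1.95% of all genes called higher, and 20 had a positive change. Their summed level was 1178, 951 and 1053 CPM at 5dpr and 3707, 2339, 5863 and 1430.0 CPM at 14dpr, with 869 ± 148 CPM at baseline and Cilp (mean 699.9 CPM) as the most abundant gene. All 14dpr libraries exceeded all 5dpr libraries, replicate 3 the most and replicate 4 the least. Called cartilage genes numbered 6 without 14dpr replicate 3, 3 without 5dpr replicate 3 and 2 without 5dpr replicate 4. Aggrecan (Acan, ENSMUSG00000030607), the proteoglycan that holds water in cartilage, on chromosome 7 from 79053483 to 79115099, stood at 42.5, 18.5 and 26.3 CPM at 5dpr and at 466, 147, 380.0 and 97.8 CPM at 14dpr. The groups did not overlap, and 14dpr replicates 1 and 3 were the highest. Aggrecan was called (log2 fold change 3.24, standard error 0.748, adjusted p = 0.00833, edgeR), but not without 5dpr replicate 3 (adjusted p = 0.0714) or without 5dpr replicate 4 (adjusted p = 0.0576). Collagen II (Col2a1, ENSMUSG00000022483) stood at 49.3, 6.14 and 2.37 CPM and at 622, 302, 2183 and 9.87 CPM. Replicate 4 at 14dpr lay below 5dpr replicate 1, so the groups overlapped, and the 14dpr libraries themselves ranged from 9.87 to 2183 CPM. Its change (log2 fold change 5.36, standard error 1.44, adjusted p = 0.0257, edgeR) was no longer called without 14dpr replicate 3 (adjusted p = 0.0979), without 5dpr replicate 3 (adjusted p = 0.139) or without 5dpr replicate 4 (adjusted p = 0.131). Sox9, the factor that drives both of those genes, was at 6.99, 4.82 and 6.11 CPM and 20.7, 6.15, 21.1 and 5.71 CPM. High values sat in 14dpr replicates 1 and 3 alone, and the gene was not called (log2 fold change 1.17, standard error 0.506, adjusted p = 0.197, edgeR).

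Some matrix genes with firmer calls were found beside these, of which Cilp2 is counted in the tendon list and not in the cartilage list. Cilp2, a protein of the middle zone of articular cartilage, had the largest rise among called genes with at least 5 CPM on average and no overlap between stages, predicted genes aside. It went from 3.28, 2.69 and 1.51 CPM to 60.3, 20.0, 57.6 and 15.2 CPM (log2 fold change 3.94, standard error 0.629, adjusted p = 0.000134, edgeR). The related Cilp was at 692, 582 and 678 CPM and 768, 821, 708 and 649.9 CPM, and was not called (adjusted p = 0.762, edgeR). Matrilin-4 (Matn4), an adaptor between matrix fibrils, stood at 2.07, 1.83 and 2.30 CPM and then at 17.0, 19.3, 36.3 and 11.9 CPM (log2 fold change 3.35, standard error 0.555, adjusted p = 0.000233, edgeR). Each 14dpr library held more than 5 times the Matn4 of any 5dpr library. Comp (ENSMUSG00000031849), a matrix protein of cartilage and tendon that is in the cartilage and tendon lists as Col11a1 is, was at 71.5, 22.8 and 29.2 CPM at 5dpr and at 509, 151, 657 and 118 CPM at 14dpr (log2 fold change 3.13, standard error 0.584, adjusted p = 0.00101, edgeR). As with Acan, 14dpr replicates 1 and 3 held the most and replicate 4 the least. The calls for Cilp2, Matn4 and Comp held without any of the 7 libraries.

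**Figure D3:**
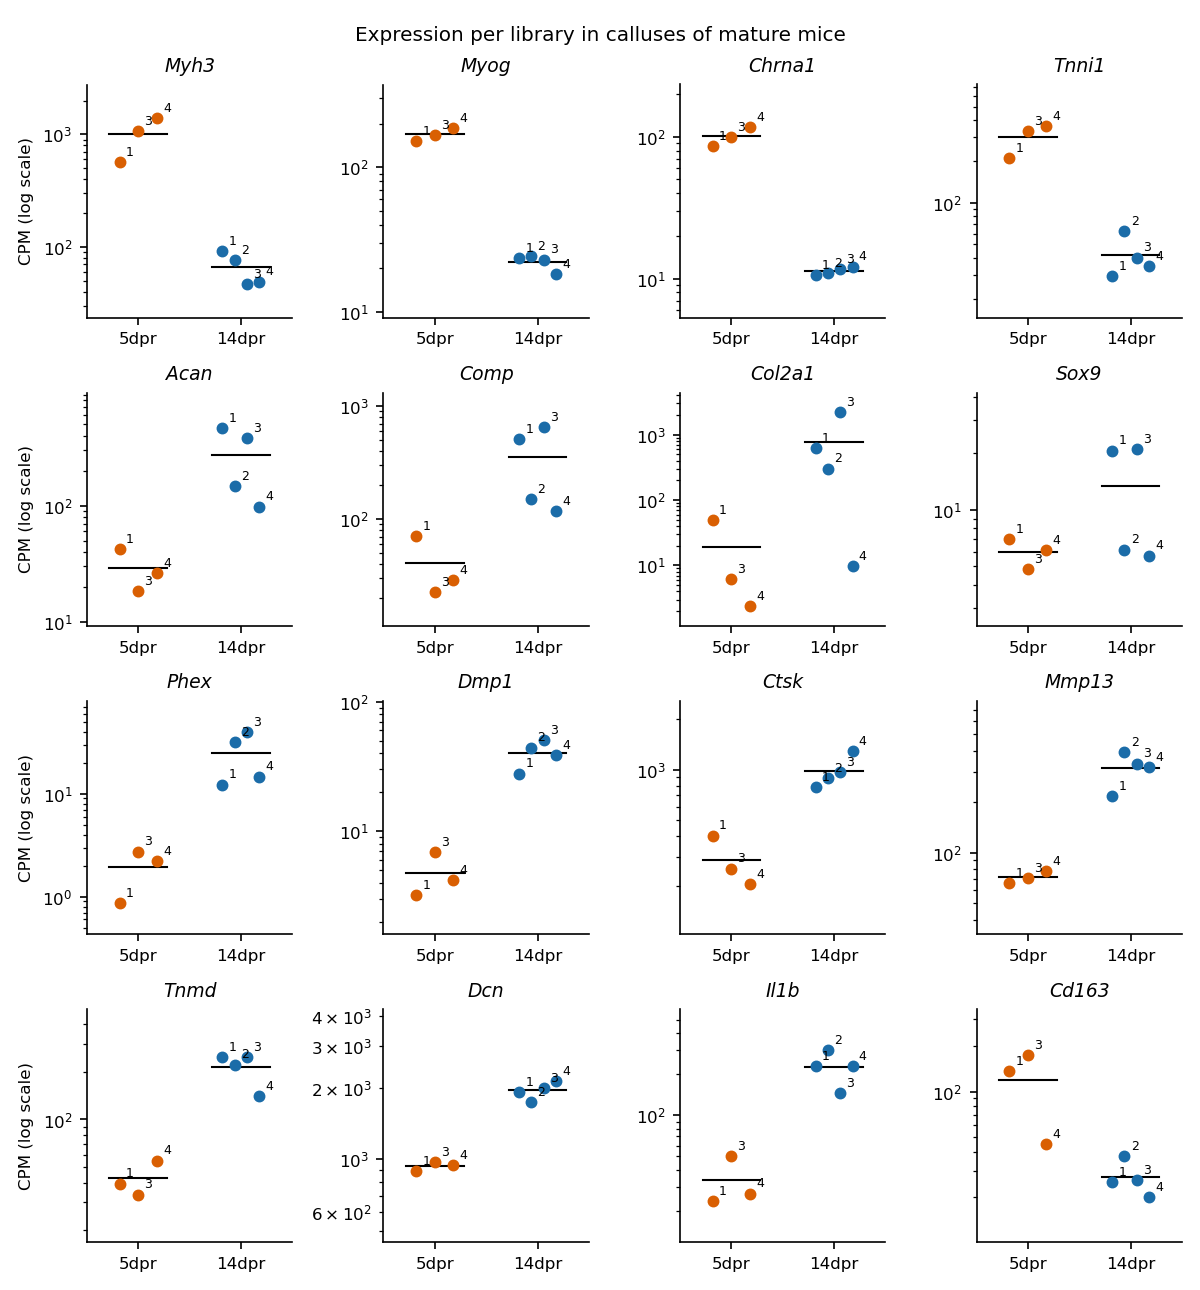
Level of 16 genes in each mature library at 5 and 14dpr (CPM, log axis), where the number is the replicate and the bar the group mean. Muscle regeneration genes such as Myh3 and Myog separate fully between the stages, whereas Col2a1 overlaps, with 14dpr replicate 4 at 9.87 CPM and 5dpr replicate 1 at 49.3 CPM.

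Hedgehog signalling joins the cartilage to its surroundings. Ihh from enlarging chondrocytes binds the receptor Ptch1 on neighbouring cells, and the pathway's own targets, Ptch1 and the factor Gli1, report its activity. Of 14 pathway genes, 4 were higher and 0 lower, with a median of 0.53, and the same with Ihh at its lower bound. The ligand Ihh, which is also in the cartilage list, had 0, 0 and 0 counts at 5dpr and 4, 21, 18 and 0 counts at 14dpr. Replicate 4 at 14dpr was at 0 as well, and measured from a floor of 3 counts in each 5dpr library the mean level at 14dpr was at least 5.78-fold higher (edgeR, adjusted p = 0.0119). That call was lost without 5dpr replicate 3 (adjusted p = 0.0744) or without 5dpr replicate 4 (adjusted p = 0.0599). Ptch1 stood at 19.5, 14.4 and 18.9 CPM at 5dpr and at 27.2, 33.7, 55.3 and 19.5 CPM at 14dpr (log2 fold change 0.95, standard error 0.226, adjusted p = 0.0106, edgeR), and was not called without 14dpr replicate 3 (adjusted p = 0.098) or without 5dpr replicate 3 (adjusted p = 0.0963). Gli1 was at 1.12, 1.37 and 2.52 CPM and 9.04, 5.36, 6.02 and 4.67 CPM (log2 fold change 1.90, standard error 0.517, adjusted p = 0.0284, edgeR), and was not called without 14dpr replicate 1 (adjusted p = 0.0949), without 14dpr replicate 3 (adjusted p = 0.0501), without 5dpr replicate 1 (adjusted p = 0.139) or without 5dpr replicate 3 (adjusted p = 0.142), nor with thinned libraries (adjusted p = 0.0516). For both targets 14dpr replicate 4 was the lowest of its stage, as it was for Col2a1 and Ihh. The last called gene was the co-receptor Boc (log2 fold change 0.90, standard error 0.264, adjusted p = 0.0431, edgeR), whose call was lost in every fit that left out a library except that without 14dpr replicate 4, and with thinned libraries or the sarcomere covariate, while the related co-receptor Cdon, at 71.5, 81.0 and 89.7 CPM and 119, 116, 117 and 81.4 CPM, was not called. Hedgehog calls numbered 2 without 14dpr replicate 1 or 5dpr replicate 1 or 5dpr replicate 4, 1 without 14dpr replicate 3 and 0 without 5dpr replicate 3, and 2 with libraries thinned to equal totals.

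Some genes of bone-forming cells were called higher. Osteoblasts deposit collagen I and then mineral, with alkaline phosphatase (Alpl) and bone sialoprotein (Ibsp) at the start, and some become osteocytes that make Dmp1 and Phex to control phosphate. In the osteoblast and osteocyte list, 9 of 20 genes were higher and 0 lower, with a median of 1.70 and 19 positive changes. The sum of the list was 3496, 1335 and 773 CPM at 5dpr and 1799, 2123, 2592 and 2641 CPM at 14dpr, which overlapped. Its most abundant gene was Spp1 (mean 1513 CPM). Osteopontin (Spp1), which macrophages also make, was at 3319.6, 1021 and 574 CPM and 1250.5, 1159, 1367 and 1898 CPM, with the highest value in 5dpr replicate 1, and was not called. Phex (ENSMUSG00000057457), the phosphate-regulating peptidase, on chromosome X from 157162075 to 157415312, stood at 0.863, 2.74 and 2.23 CPM at 5dpr and at 12.3, 31.8, 39.9 and 14.6 CPM at 14dpr. All 14dpr values were above all 5dpr values, with replicates 2 and 3 the highest (log2 fold change 3.61, standard error 0.603, adjusted p = 0.000269, edgeR), and its baseline was 35.2 ± 11.0 CPM. Dmp1 (ENSMUSG00000029307), the mineral-binding protein of osteocytes, was at 3.19, 6.90 and 4.17 CPM and 27.8, 44.1, 50.6 and 38.8 CPM (log2 fold change 3.06, standard error 0.59, adjusted p = 0.00143, edgeR), with 59.0 ± 21.0 CPM at baseline. Neither gene lost its call without any single library. Alpl was at 18.1, 30.6 and 19.2 CPM and 76.8, 90.1, 125 and 64.4 CPM (log2 fold change 1.97, standard error 0.401, adjusted p = 0.00243, edgeR), and Ibsp at 81.4, 122 and 88.2 CPM and 256, 506, 591 and 334 CPM (log2 fold change 2.12, standard error 0.472, adjusted p = 0.00607, edgeR). Again the stages were apart in each library, and 14dpr replicate 3 was the highest for both.

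Among factors that set the osteoblast fate, Sp7 and Runx2 were not called in edgeR. Sp7 (osterix) stood at 5.18, 7.66 and 6.18 CPM and 14.1, 23.8, 26.9 and 16.5 CPM, apart but not called (log2 fold change 1.67, adjusted p = 0.0775, edgeR) except with DESeq2 (adjusted p = 0.0258), in a fit of the compared libraries alone (adjusted p = 0.00145) and without mature 2dpr replicate 3 in the fit (adjusted p = 0.0424). Runx2, the master factor above it, was at 19.8, 14.6 and 21.4 CPM and 21.7, 32.4, 37.9 and 39.7 CPM, and was not called (log2 fold change 0.83, adjusted p = 0.259, edgeR) except in a fit of the compared libraries alone (adjusted p = 0.0231). Bglap, one of a set of near-identical gene copies, was at 4.83, 57.0 and 19.8 CPM and 40.0, 63.7, 89.1 and 104 CPM, with overlapping groups and no call (adjusted p = 0.288, edgeR). All 4 of its 14dpr values lay below the baseline of 318 ± 79.3 CPM. Osteoblast calls numbered 5 without 5dpr replicate 3 or 5dpr replicate 4 and 4 without 14dpr replicate 3.

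Some genes of bone resorption were called higher as well. Osteoclasts dissolve mineral and digest collagen with cathepsin K (Ctsk), carry the phosphatase Acp5 (TRAP) and secrete Mmp9. Of 14 osteoclast genes, 5 were higher and 0 lower, with a median of 0.84. The summed level was 1213, 770.2 and 692 CPM at 5dpr and 2005, 2412, 2498 and 2897 CPM at 14dpr, beside 2809 ± 379.5 CPM at baseline. Each 14dpr library was higher than each 5dpr library. Ctsk (ENSMUSG00000028111) stood at 402, 255 and 206 CPM and then at 783, 891, 964 and 1291 CPM (log2 fold change 1.77, standard error 0.382, adjusted p = 0.00431, edgeR), with the call lost without 5dpr replicate 4 (adjusted p = 0.052). Acp5 was at 209.7, 143 and 121 CPM and 442, 578, 584 and 538 CPM, called with or without any single library (log2 fold change 1.76, standard error 0.36, adjusted p = 0.00252, edgeR). Called osteoclast genes numbered 3 without 5dpr replicate 3 and 1 without 5dpr replicate 4, and 9 in a fit of the compared libraries alone.

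Matrix is also broken down by the metalloproteinases, which the TIMP proteins restrain. Of 18 such genes, 6 were higher (Mmp2, Mmp13, Timp2, Mmp9, Mmp3 and Adamts5) and 0 lower, with a median of 0.48. Mmp2 (ENSMUSG00000031740), the gelatinase of fibroblasts, stood at 429.7, 437 and 471 CPM at 5dpr and at 1604, 1043, 1437 and 1257 CPM at 14dpr (log2 fold change 1.58, standard error 0.189, adjusted p = 1.33e-06, edgeR). The 14dpr libraries were all above 1000 CPM and the 5dpr libraries all below 500 CPM. Mmp13, the collagenase of enlarged chondrocytes and osteoblasts, was at 65.8, 70.5 and 78.0 CPM and 216, 394, 336 and 321 CPM (log2 fold change 2.15, standard error 0.408, adjusted p = 0.0012, edgeR), with the lowest 14dpr value in replicate 1. Mmp9 is in the osteoclast list too. The metalloproteinase count of 6 was 3 without 5dpr replicate 4.

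Part of the tendon list was called higher, mostly through genes that other tissues share. Tenocytes make aligned collagen I under the factor scleraxis, with tenomodulin (Tnmd) as their surface marker. In the tendon list 6 of 10 genes were higher and 0 lower, with a median of 2.27, and leaving out a library gave 5 or 6. Besides Tnmd these were Comp and Col11a1, also in the cartilage list, Kera and Fmod, also in the proteoglycan list, and Cilp2, described above. Of the 10 changes 8 were positive. The negative ones, named after their values were seen, were those of scleraxis itself (Scx, log2 fold change -0.89, adjusted p = 0.374, edgeR) and of Angptl7 (log2 fold change -1.15, adjusted p = 0.112, edgeR), and neither was called. Summed levels were 1143, 894 and 1264 CPM at 5dpr and 3558, 2055, 3817 and 1549.6 CPM at 14dpr. No 14dpr library overlapped the 5dpr range, and replicates 1 and 3 were the highest. Tnmd (ENSMUSG00000031250) stood at 39.4, 33.5 and 55.0 CPM and then at 248, 222, 248 and 140.1 CPM, with 7.87 ± 2.38 CPM at baseline (log2 fold change 2.33, standard error 0.373, adjusted p = 0.000134, edgeR). All 14dpr libraries were above all 5dpr libraries, and replicate 4 was the lowest of them. Thbs4, a matrix protein of tendon and muscle attachments, was at 791, 612 and 910.3 CPM and 1415, 946, 1169.5 and 727 CPM, overlapped between stages and was not called (log2 fold change 0.47, adjusted p = 0.35, edgeR).

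Small leucine-rich proteoglycans coat collagen fibrils and set their width and spacing. Of 12 listed members, 8 were higher and 0 lower, with all 12 changes positive and a median of 1.22. Kera and Fmod are in the tendon list too, and Omd is in the osteoblast list too. Decorin (Dcn, ENSMUSG00000019929) stood at 895, 976 and 943 CPM at 5dpr and at 1923, 1748, 2002 and 2143 CPM at 14dpr (log2 fold change 1.06, standard error 0.183, adjusted p = 0.000382, edgeR). Lumican (Lum) was at 336, 373 and 342 CPM and 1006, 855, 1054 and 933 CPM (log2 fold change 1.46, standard error 0.236, adjusted p = 0.000168, edgeR). In both genes the libraries of a stage were close together, and the stages were apart. Keratocan (Kera), best known from the cornea, stood at 1.04, 1.93 and 3.02 CPM and 15.8, 18.7, 34.2 and 16.9 CPM, with replicate 3 the highest at 14dpr (log2 fold change 3.41, standard error 0.464, adjusted p = 1.15e-05, edgeR). The proteoglycan count of 8 was 5 without 14dpr replicate 3 or 5dpr replicate 4. Htra1, a secreted protease whose known substrates include matrix proteoglycans, rose as well, from 59.9, 77.1 and 71.7 CPM to 181, 149, 157 and 169.8 CPM (log2 fold change 1.24, standard error 0.15, adjusted p = 1.51e-06, edgeR).

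**Figure D4:**
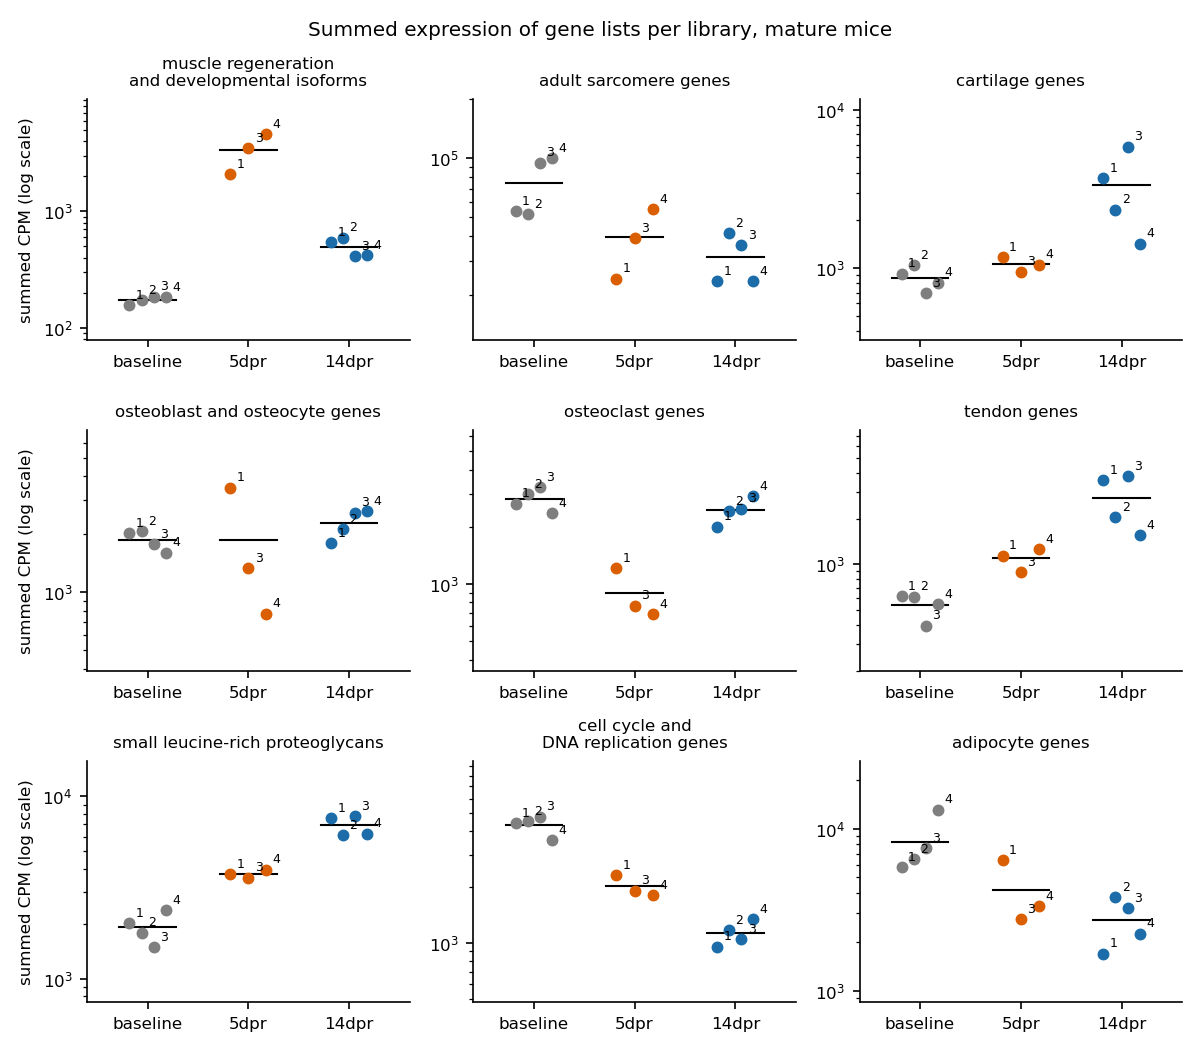
Summed CPM (log axis) of 9 gene lists in each mature library at baseline, 5dpr and 14dpr, where the number is the replicate and the bar the group mean. Muscle regeneration falls from between 2097 and 4622 CPM to between 413 and 594 CPM, whereas the adult sarcomere sums overlap between the stages.

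Most genes of the bulk fibrous matrix were not called. Fibroblasts and myofibroblasts lay down collagens I and III with fibronectin and periostin, and enzymes inside and outside the cell fold and crosslink them. Of 14 stromal collagen genes, 2 were higher (Col14a1 and Col15a1) and 0 lower, against 1.95% of all genes called higher, with a median of 0.49 and 13 positive changes. Their summed level was 45202, 51030.1 and 46523 CPM at 5dpr and 95009, 63976, 75717 and 59409.5 CPM at 14dpr, higher in all 14dpr libraries, and the sum was not tested. Col3a1, the chief fibrillar partner of collagen I in early scars, stood at 14723, 18698 and 15486 CPM and 28166, 19481, 20342 and 21025 CPM, far over its baseline of 882 ± 345 CPM. All 14dpr libraries were above all 5dpr libraries, replicate 2 by a small margin, and the gene was not called (log2 fold change 0.45, standard error 0.232, adjusted p = 0.3, edgeR). Col1a1 was at 8344, 8964 and 8009 CPM and 22436, 15219.9, 17777 and 10897 CPM, also without overlap and without a call (log2 fold change 0.97, standard error 0.431, adjusted p = 0.209, edgeR) except in a fit of the compared libraries alone (adjusted p = 0.0212). Col14a1, a collagen on the surface of fibrils, was at 519, 507 and 570.4 CPM and 1148, 1019, 914 and 899 CPM (log2 fold change 0.90, standard error 0.218, adjusted p = 0.0119, edgeR), and was not called without 5dpr replicate 1 (adjusted p = 0.055) or without 5dpr replicate 3 (adjusted p = 0.0698). Col15a1, of the basement membrane zone, was at 167, 236 and 201 CPM and 517, 335, 413 and 312 CPM (log2 fold change 0.97, standard error 0.23, adjusted p = 0.0103, edgeR), and was not called without 14dpr replicate 1 (adjusted p = 0.0552), without 5dpr replicate 1 (adjusted p = 0.0804) or without 5dpr replicate 4 (adjusted p = 0.0518). The stromal collagen count of 2 was 1 without 14dpr replicate 1 or 5dpr replicate 3 or 5dpr replicate 4 and 0 without 5dpr replicate 1, and 4 in a fit of the compared libraries alone. Of 22 collagen processing enzymes 1 was lower, the crosslinking enzyme Loxl3 (log2 fold change -0.72, standard error 0.208, adjusted p = 0.0399, edgeR), and the median was -0.08. Its call was lost without 14dpr replicate 2 (adjusted p = 0.157), without 14dpr replicate 3 (adjusted p = 0.0586), without 14dpr replicate 4 (adjusted p = 0.0833), without 5dpr replicate 1 (adjusted p = 0.175), without 5dpr replicate 3 (adjusted p = 0.0856) or without 5dpr replicate 4 (adjusted p = 0.0758), and with RLE size factors (adjusted p = 0.0558) and with the full table (adjusted p = 0.0784), and the count of 1 for that list was 2 with DESeq2 or with edgeR's own filter or in a fit of the compared libraries alone and 0 with RLE size factors or with the full table. The collagen chaperone Serpinh1 stood at 1697, 1699 and 1365 CPM and 1605, 1139, 1269.8 and 1079.7 CPM, with overlapping groups.

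Provisional matrix and myofibroblast genes gave calls in both directions. Myofibroblasts contract through smooth muscle actin (Acta2) and transgelin (Tagln), and they and their precursors carry the peptidase Fap and the collagen receptor subunit Itga11. Of 17 listed genes, 2 were higher (Fap and Itga11) and 2 lower (Acta2 and Tagln), with a median of 0.01. Acta2 (ENSMUSG00000035783) stood at 488, 545 and 683 CPM at 5dpr and at 231, 177, 157 and 172 CPM at 14dpr (log2 fold change -1.63, standard error 0.273, adjusted p = 0.000278, edgeR). The 14dpr values were all below the 5dpr values and all above the baseline of 65.9 ± 15.3 CPM. Fap went from 72.0, 86.9 and 87.8 CPM to 169, 194, 189 and 189 CPM (log2 fold change 1.17, standard error 0.193, adjusted p = 0.000233, edgeR), and Itga11 from 65.2, 51.9 and 66.1 CPM to 179, 123, 148 and 111 CPM (log2 fold change 1.20, standard error 0.22, adjusted p = 0.000817, edgeR). Fibronectin (Fn1) was at 3242, 2881 and 3645 CPM and 8918, 4387, 6993 and 5850.0 CPM, apart but not called (log2 fold change 1.01, standard error 0.363, adjusted p = 0.113, edgeR) except in a fit of the compared libraries alone (adjusted p = 0.0167). Periostin (Postn), a matrix protein of periosteum and scars, was at 5285, 4847 and 6267 CPM and 6616, 5541, 4471 and 5343 CPM, with overlap and no call (log2 fold change 0.01, standard error 0.376, adjusted p = 0.996, edgeR). Tagln lost its call in every fit that left out a library except that without 14dpr replicate 1, and with the full table (adjusted p = 0.0588), with the sarcomere covariate (adjusted p = 0.0815) and with thinned libraries (adjusted p = 0.0506). For this list the count of 4 was 8 in a fit of the compared libraries alone.

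Growth signals were read from ligands, receptors and antagonists. TGF-beta and BMP proteins act through receptor pairs and Smad factors, and Wnt proteins through Lrp5 or Lrp6, with secreted Sfrp and Dkk proteins holding them back. Of 30 TGF-beta and BMP pathway genes 0 were called in edgeR and 8 had an unadjusted p under 0.05, with a median of 0.17. The receptor Tgfbr2 was at 313, 402 and 308 CPM and 494, 400.4, 399.8 and 431 CPM, and was called only with DESeq2 (adjusted p = 0.0468). Its signal passes to Smad4, the Smad shared by both arms, which was at 65.6, 68.8 and 66.6 CPM and 82.2, 81.7, 80.6 and 73.1 CPM. Smad4 did not overlap between stages, but its log2 fold change was 0.24 and its adjusted p 0.166 (edgeR). The ligand Tgfb1 overlapped between stages, at 39.2, 35.1 and 32.3 CPM and 45.4, 43.0, 38.8 and 35.3 CPM. TGF-beta and BMP calls numbered 1 without 14dpr replicate 4, and 4 with DESeq2, 3 in a fit of the compared libraries alone and 2 with edgeR's own filter or without mature 2dpr replicate 3 in the fit. In the Wnt list 4 of 22 genes were higher, all of them secreted antagonists or their relatives (Sfrp4, Dkk1, Dkk2 and Dkk3), and 0 were lower, with a median of 0.72. Sfrp4, a Wnt binder of periosteum and fibroblasts, stood at 48.2, 55.7 and 45.7 CPM at 5dpr and at 169, 111, 98.4 and 177 CPM at 14dpr (log2 fold change 1.48, standard error 0.25, adjusted p = 0.00031, edgeR). Dkk3, the most distant of the Dkk relatives, was at 63.2, 53.9 and 54.1 CPM and 191, 115, 159.8 and 116 CPM (log2 fold change 1.35, standard error 0.233, adjusted p = 0.000381, edgeR). In both genes each 14dpr library was above each 5dpr library. The co-receptor Lrp6 was at 163, 194 and 166 CPM and 227, 237, 244 and 178 CPM, with 14dpr replicate 4 inside the 5dpr range. It was not called (adjusted p = 0.116, edgeR), except without that replicate (adjusted p = 0.0475). The Wnt count of 4 was 9 in a fit of the compared libraries alone and 7 with DESeq2.

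Imprinted growth genes are expressed from the copy of 1 parent, are high in the fetus and return in regenerating muscle and other growing tissue. Of 10 such genes, 4 were lower (Igf2, H19, Cdkn1c and Peg3) and 1 higher (Dlk1), with a median of -0.70. The long noncoding RNA H19 stood at 1805, 2759 and 3216 CPM at 5dpr and at 1099.5, 1066, 1197 and 1059 CPM at 14dpr (log2 fold change -1.23, standard error 0.233, adjusted p = 0.00117, edgeR). Its neighbour Igf2, a growth factor, was at 218, 306 and 400.4 CPM and 118, 110.1, 105 and 78.2 CPM (log2 fold change -1.58, standard error 0.296, adjusted p = 0.00102, edgeR). The growth inhibitor Cdkn1c was at 61.4, 75.5 and 94.1 CPM and 27.7, 38.0, 23.3 and 25.1 CPM (log2 fold change -1.43, standard error 0.263, adjusted p = 0.000858, edgeR). In all 3 genes replicate 1 was the lowest at 5dpr, as it was for Myh3 and Actc1. Dlk1, a surface protein of progenitors that inhibits fat formation, went the other way, from 4.40, 4.21 and 14.7 CPM to 51.2, 24.5, 25.0 and 27.5 CPM (log2 fold change 2.04, standard error 0.483, adjusted p = 0.0101, edgeR). Its call was lost without 14dpr replicate 1 (adjusted p = 0.0529), without 5dpr replicate 1 (adjusted p = 0.083) or without 5dpr replicate 3 (adjusted p = 0.097). The call for Peg3 was lost without 5dpr replicate 4 (adjusted p = 0.0649, edgeR).

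Some cell division genes were called, all of them lower at 14dpr. Dividing cells switch on replication genes in S phase and then genes of mitosis, whose promoters often carry a CHR element (TTTGAA) and CCAAT boxes bound by the NF-Y factor. Of 34 cell cycle genes 6 were lower (Cdc20, Kif20a, Tyms, Aurka, Tpx2 and Plk1) and 0 higher, against 2.23% of all genes called lower, with all 34 changes negative and a median of -0.93. The sum over the list was 2323, 1915 and 1814 CPM at 5dpr and 953, 1171, 1047 and 1340.0 CPM at 14dpr, with 4341 ± 529 CPM at baseline. The stages did not overlap, and replicate 4 was the highest at 14dpr. Cdc20, which triggers the exit from mitosis, stood at 44.5, 40.8 and 35.4 CPM and then at 13.4, 15.3, 18.2 and 22.2 CPM (log2 fold change -1.22, standard error 0.319, adjusted p = 0.0217, edgeR), and was not called without 14dpr replicate 1 (adjusted p = 0.0785), without 14dpr replicate 2 (adjusted p = 0.0647), without 5dpr replicate 1 (adjusted p = 0.0842) or without 5dpr replicate 3 (adjusted p = 0.0722). Mki67, the usual marker of dividing cells, was at 346, 247 and 284 CPM and 137, 194, 164 and 192 CPM, apart but not called (log2 fold change -0.77, standard error 0.406, adjusted p = 0.314, edgeR) except in a fit of the compared libraries alone (adjusted p = 0.0105). Aurka, the kinase of the spindle poles (log2 fold change -1.31, standard error 0.375, adjusted p = 0.0384, edgeR), and Plk1, the kinase that drives entry into mitosis (log2 fold change -1.26, standard error 0.375, adjusted p = 0.0478, edgeR), gave similar values. Each lost its call in all 7 fits that left out a library, and Plk1 also with RLE factors, the full table or thinned libraries. The cell cycle count of 6 was 3 without 14dpr replicate 4, 1 without 14dpr replicate 3 or 5dpr replicate 4 and 0 without 14dpr replicate 1 or 14dpr replicate 2 or 5dpr replicate 1 or 5dpr replicate 3, so it fell with each library left out, and it was 32 in a fit of the compared libraries alone and 3 with the full table or with libraries thinned to equal totals.

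Promoters of Cdc20, Aurka and Plk1 are printed because these called genes act in mitosis and their windows carry both elements. Capitals mark TTTGAA and CCAAT, searched on both strands so that TTCAAA and ATTGG are marked too, each motif on its own, so that matches may overlap. The windows lie at chr4:118437294-118437593 on the minus strand, chr2:172370521-172370820 on the minus strand and chr7:122159185-122159484 on the plus strand. TTTGAA was found in 13 of 29 windows (44.8%) from 28 of the 34 genes and in 17.9% of all 32851 promoters. CCAAT was found in 23 of 29 windows (79.3%) and in 37.4% of all promoters, and both elements together in 13 of 29 (44.8%) and in 6.95%. Whether these letters act in the callus was not tested.
Cdc20: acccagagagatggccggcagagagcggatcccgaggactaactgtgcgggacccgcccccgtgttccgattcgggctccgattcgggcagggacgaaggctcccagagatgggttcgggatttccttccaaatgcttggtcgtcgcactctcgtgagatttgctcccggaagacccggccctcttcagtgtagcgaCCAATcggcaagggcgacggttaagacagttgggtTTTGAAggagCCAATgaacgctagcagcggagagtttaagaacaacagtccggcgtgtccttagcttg
Aurka: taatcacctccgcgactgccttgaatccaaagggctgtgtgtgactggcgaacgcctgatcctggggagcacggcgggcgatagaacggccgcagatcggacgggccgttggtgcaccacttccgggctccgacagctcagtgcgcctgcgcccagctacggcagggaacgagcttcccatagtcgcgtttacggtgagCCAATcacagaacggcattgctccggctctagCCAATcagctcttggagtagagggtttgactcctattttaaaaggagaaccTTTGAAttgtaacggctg
Plk1: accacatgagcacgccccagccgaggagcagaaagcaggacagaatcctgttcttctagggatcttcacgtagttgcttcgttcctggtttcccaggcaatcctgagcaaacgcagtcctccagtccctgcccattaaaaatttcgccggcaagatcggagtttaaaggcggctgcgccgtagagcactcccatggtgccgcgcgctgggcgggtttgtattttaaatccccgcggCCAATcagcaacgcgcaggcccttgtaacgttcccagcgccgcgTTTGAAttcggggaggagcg

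Among immune genes, some markers of macrophage subsets fell. Resident-type macrophages carry the scavenger receptor Cd163 and the folate receptor Folr2, recruited monocytes carry Ccr2, and activated cells release Il1b and chemokines such as Cxcl2. Of 26 monocyte and macrophage genes, 3 were lower, among them Cd163 and Folr2, and 0 higher, with a median of -0.15. The list held 8 positive and 18 negative changes. Other macrophage markers in it did not fall with Cd163 and Folr2. Timd4 had a log2 fold change of 1.46 (adjusted p = 0.279, edgeR), Lyve1 of 0.61 (adjusted p = 0.194, edgeR) and Mrc1 of -0.09 (adjusted p = 0.884, edgeR). The pan-macrophage gene Adgre1 stood at 366, 466 and 330.4 CPM at 5dpr and at 381, 338, 328 and 445 CPM at 14dpr, and Lyz2, a lysozyme of all myeloid cells, at 4562, 4073 and 3200.4 CPM and 5515, 5152, 5195 and 6369 CPM. Neither gene was called (adjusted p = 0.932 and 0.334, edgeR). Cd163 (ENSMUSG00000008845) was at 137, 175 and 45.1 CPM and 25.1, 37.4, 26.0 and 20.1 CPM, with 5dpr replicate 4 the lowest of its stage but above all 14dpr libraries (log2 fold change -2.13, standard error 0.333, adjusted p = 0.000103, edgeR). Folr2 was at 124, 151 and 107 CPM and 46.6, 38.4, 34.8 and 74.3 CPM, with replicate 4 the highest at 14dpr (log2 fold change -1.39, standard error 0.282, adjusted p = 0.00235, edgeR). Ccr2 stood at 169, 185 and 168 CPM and 124, 135, 110.4 and 148 CPM, apart but not called (adjusted p = 0.433, edgeR) except in a fit of the compared libraries alone (adjusted p = 0.0414). The macrophage count of 3 was 7 in a fit of the compared libraries alone.

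Cytokines and chemokines split in both directions. Of 30 such genes, 3 were higher (Il1b, Cxcl2 and Ccl3) and 2 lower (Ccl2 and Ccl12), with a median of 0.35. The inflammatory cytokine Il1b (ENSMUSG00000027398) stood at 23.6, 50.5 and 26.8 CPM at 5dpr and at 230.1, 298, 145 and 228 CPM at 14dpr (log2 fold change 2.74, standard error 0.471, adjusted p = 0.000381, edgeR), with 35.9 ± 17.1 CPM at baseline. Every 14dpr library was above every 5dpr library, and replicate 3 was the lowest of them. Cxcl2, which draws neutrophils, was at 12.9, 19.8 and 8.34 CPM and 80.1, 101, 57.1 and 91.9 CPM (log2 fold change 2.59, standard error 0.575, adjusted p = 0.00585, edgeR), and was not called without 5dpr replicate 4 (adjusted p = 0.06). The monocyte attractants Ccl2 and Ccl12 ran the opposite way. Ccl2 was at 121, 161 and 59.7 CPM and 50.5, 30.8, 47.8 and 54.1 CPM (log2 fold change -1.31, standard error 0.308, adjusted p = 0.00964, edgeR), and Ccl12 at 19.2, 36.6 and 14.1 CPM and 6.99, 6.26, 6.46 and 8.93 CPM (log2 fold change -1.70, standard error 0.394, adjusted p = 0.00838, edgeR). Both were no longer called without 5dpr replicate 3, the highest of its stage (adjusted p = 0.134 and 0.147). The cytokine count of 5 was 3 without 5dpr replicate 4, and 12 in a fit of the compared libraries alone and 8 with DESeq2 or without mature 2dpr replicate 3 in the fit. Among the largest rises by the criteria given for Cilp2 was that of Acod1, the enzyme of activated macrophages that makes itaconate. It went from 8.54, 19.6 and 8.27 CPM to 126, 167, 86.1 and 168 CPM (log2 fold change 3.48, standard error 0.539, adjusted p = 0.0001, edgeR). Another of these rises was that of Slc7a11, the cystine importer that is induced by oxidative stress. It went from 8.89, 19.8 and 14.7 CPM to 130.3, 183, 104 and 154 CPM (log2 fold change 3.29, standard error 0.429, adjusted p = 5.5e-06, edgeR). Like Il1b, both were lowest at 14dpr in replicate 3.

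Of other blood lineages, only the B cell list held calls in edgeR's fit of the filtered table with all 39 libraries. Neutrophils carry S100a9, erythroid cells globins, and B cell precursors of the marrow rearrange antibody genes with Rag1. Of 15 neutrophil genes 0 were called in edgeR, 1 at an unadjusted p under 0.05 and 1 with DESeq2 or in a fit of the compared libraries alone, with a median of 0.40. S100a9 stood at 833, 589 and 420.4 CPM and 478, 1079.5, 561 and 1712 CPM with overlapping groups. Of 15 erythroid genes 0 were called in edgeR, 0 in DESeq2 and 0 at an unadjusted p under 0.05, with a median of -0.11. In the B cell and plasma cell list, 3 of 19 genes were higher, among them Rag1 and Cd79b, and 0 lower, with a median of 1.70, or 1.65 with Rag2 at its lower bound. The sum of the list was 324, 259.8 and 320.0 CPM at 5dpr and 447, 532, 466 and 595 CPM at 14dpr, against 1609.9 ± 371 CPM at baseline, and its most abundant gene was Sdc1 (mean 133 CPM), a proteoglycan that other cells make too. Cd79b, a part of the B cell receptor, was at 3.45, 2.44 and 3.52 CPM and 6.87, 18.3, 11.9 and 14.0 CPM (log2 fold change 2.04, standard error 0.565, adjusted p = 0.0317, edgeR), with 14dpr replicate 1 the lowest of its stage. It was not called without 14dpr replicate 2 (adjusted p = 0.0931), without 14dpr replicate 3 (adjusted p = 0.052), without 14dpr replicate 4 (adjusted p = 0.0577), without 5dpr replicate 1 (adjusted p = 0.0901), without 5dpr replicate 3 (adjusted p = 0.153) or without 5dpr replicate 4 (adjusted p = 0.0944), nor with the sarcomere covariate (adjusted p = 0.0637). B cell calls numbered 1 without 14dpr replicate 2 or 14dpr replicate 3 or 14dpr replicate 4 or 5dpr replicate 1 and 0 without 5dpr replicate 3 or 5dpr replicate 4, and 8 in a fit of the compared libraries alone, 7 with DESeq2, 5 without mature 2dpr replicate 3 in the fit and 1 with the sarcomere list as a covariate. Of 16 T cell and NK cell genes 0 were called in edgeR, 3 at an unadjusted p under 0.05, and 3 in a fit of the compared libraries alone, 2 with DESeq2 or without mature 2dpr replicate 3 in the fit and 1 with edgeR's own filter, with a median of 0.77. Cd4, the co-receptor of helper T cells, was at 4.06, 8.27 and 6.61 CPM and 13.7, 12.5, 20.4 and 16.4 CPM, apart but not called (adjusted p = 0.0648, edgeR) except with DESeq2 (adjusted p = 0.0164), with edgeR's own filter (adjusted p = 0.0497), in a fit of the compared libraries alone (adjusted p = 0.00639) and without mature 2dpr replicate 3 in the fit (adjusted p = 0.0392). All 14 interferon-induced genes had negative changes with a median of -0.59, and 0 were called in edgeR, 0 in DESeq2, 2 at an unadjusted p under 0.05 and 1 in a fit of the compared libraries alone. Their regulator Irf7 stood at 123, 170.5 and 134 CPM and 95.8, 48.5, 61.2 and 129 CPM, where 14dpr replicate 4 reached into the 5dpr range.

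Some fat genes were called lower, and their calls depended on single libraries. Adipocytes lie around the rib and can lie in marrow, store lipid with perilipins and Cidec, and secrete adiponectin (Adipoq). Of 19 adipocyte genes, 4 were lower (Cidec, Plin4, Fabp4 and Adipoq) and 0 higher, against 2.23% of all genes called lower, with a median of -1.02. Their sum was 6409, 2781 and 3342 CPM at 5dpr and 1697, 3798, 3243 and 2249 CPM at 14dpr, with overlap between the stages and the highest value in 5dpr replicate 1. Cidec stood at 225, 49.3 and 35.2 CPM and 14.9, 39.3, 25.4 and 22.2 CPM, with overlap between the stages (log2 fold change -2.01, standard error 0.49, adjusted p = 0.0124, edgeR). Plin4 was at 269, 123 and 112 CPM and 46.6, 80.7, 72.1 and 78.5 CPM (log2 fold change -1.27, standard error 0.315, adjusted p = 0.0143, edgeR). Cidec was not called without 14dpr replicate 1 (adjusted p = 0.0565) or without 5dpr replicate 1 (adjusted p = 0.482), and Plin4 was not called without 14dpr replicate 1 (adjusted p = 0.0665) or without 5dpr replicate 1 (adjusted p = 0.251). The adipocyte count of 4 was 2 without 14dpr replicate 3 or 14dpr replicate 4 and 0 without 14dpr replicate 1 or 5dpr replicate 1.

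Most genes of vessels and nerves were not called. Of 17 endothelial genes 1 was higher, the tight junction gene Cldn5, and 1 lower, Apln, a peptide of sprouting vessel tips, with a median of 0.13. Apln stood at 39.4, 53.4 and 48.4 CPM at 5dpr and at 21.9, 9.83, 15.7 and 13.6 CPM at 14dpr (log2 fold change -1.62, standard error 0.34, adjusted p = 0.00322, edgeR), and Cldn5 at 20.6, 19.4 and 20.8 CPM and 42.2, 38.5, 41.0 and 37.0 CPM (log2 fold change 0.97, standard error 0.235, adjusted p = 0.0122, edgeR). The stages were apart for both, and Cldn5 lost its call without 5dpr replicate 3 (adjusted p = 0.0707) or without 5dpr replicate 4 (adjusted p = 0.0518). The endothelial count of 2 was 1 without 5dpr replicate 3 or 5dpr replicate 4, and 4 with DESeq2 or in a fit of the compared libraries alone or without mature 2dpr replicate 3 in the fit. Of 12 Schwann cell genes 0 were called in edgeR, 0 in DESeq2 and 0 at an unadjusted p under 0.05, with a median of 0.39. Pmp22, a myelin gene also made by fibroblasts, was at 111, 116 and 90.5 CPM and 142, 119, 114 and 114 CPM. Immediate early genes respond to stimulation within minutes, and also to the handling of tissue. Of 13 of them 2 were higher, the phosphatase Dusp1 and the growth inhibitor Btg2, with a median of 0.50. Dusp1 was at 59.5, 63.2 and 52.8 CPM and 169, 144, 164 and 130.0 CPM (log2 fold change 1.38, standard error 0.306, adjusted p = 0.00595, edgeR), and Btg2 at 50.7, 44.8 and 39.3 CPM and 80.5, 96.0, 88.3 and 89.2 CPM (log2 fold change 0.98, standard error 0.237, adjusted p = 0.0119, edgeR). In both genes the stages were apart, and Btg2 lost its call without 5dpr replicate 3 (adjusted p = 0.0589) or without 5dpr replicate 4 (adjusted p = 0.0835). The immediate early count of 2 was 1 without 5dpr replicate 3 or 5dpr replicate 4.

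Outside the lists, the largest changes by the criteria given for Cilp2 included that of Brinp3, a protein best known from neurons. Brinp3 rose from 7.08, 6.40 and 4.67 CPM to 59.2, 39.8, 41.0 and 52.1 CPM (log2 fold change 2.99, standard error 0.37, adjusted p = 2.1e-06, edgeR) and was at 0.201 ± 0.0913 CPM at baseline. The largest fall by the same criteria as for Cilp2 was that of a copy of the U1 spliceosomal RNA (Rnu1b1), from 9.84, 22.7 and 14.8 CPM to 0, 0.447, 0.334 and 1.35 CPM (log2 fold change -4.82, standard error 0.858, adjusted p = 0.000595, edgeR). The mitochondrial methionine tRNA (mt-Tm) fell from 17.5, 10.6 and 19.6 CPM to 0.362, 1.01, 2.79 and 1.97 CPM (log2 fold change -3.35, standard error 0.703, adjusted p = 0.00335, edgeR). Both are short noncoding RNAs with close copies elsewhere in the genome, and how their reads were mapped was not tested.

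The same interval was set beside immature mice (labelled 7 weeks old), with 4 libraries at each stage, to ask whether the change from 5 to 14dpr depends on age. In immature mice 366 genes (1.73%) were higher and 308 (1.45%) lower. Called at both ages were 330 genes, all in the same direction, which is 37.2% of the mature calls and 49.0% of the immature calls. The immature count of 674 was 1032 without mature 2dpr replicate 3 in the fit. The interaction, as the mature change minus the immature change, was called for 0 genes by edgeR, with 901 at an unadjusted p under 0.05, and also for 0 without that library. DESeq2 called 5 genes, named after their values were seen. These were the myoblast gene Cdh15 and Slc27a5, Ces1c, Cyp4a10 and Serpina1d, which are best known from liver. On the log2 scale the interaction was -1.81 for Cdh15, 14.72 for Slc27a5, 19.05 for Ces1c, 32.88 for Cyp4a10 and -16.72 for Serpina1d. A fit of the full table called 2 predicted genes, ENSMUSG00000081067 (15.63) and ENSMUSG00000090474 (18.28), also named after their values were seen. Apart from that of Cdh15, these interactions are too extreme to be read as sizes of a difference between ages. What gave such values was not tested.

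Muscle regeneration genes fell at both ages, with 16 of 18 genes lower in immature mice and a median of -2.70. In immature mice Myh3 changed by -4.39 on the log2 scale (edgeR, adjusted p = 6.12e-08, standard error 0.443), and Chrna1 by -3.14 (adjusted p = 4.28e-08, standard error 0.305). Cdh15 was not called there (adjusted p = 0.171, edgeR), with levels of 23.2 ± 4.93 CPM at 5dpr and 14.2 ± 5.2 CPM at 14dpr in immature mice. Its interaction of -1.84 (standard error 0.4) had an adjusted p of 0.422 in edgeR, short of the threshold. Cartilage gave 5 of 22 genes higher in immature mice with a median of 1.99, the osteoblast list 9 of 20 with 1.82 and the osteoclast list 6 of 14 with 1.25. Acan, at 141 ± 50.7 and 199 ± 80.2 CPM in immature mice, had a log2 fold change of 0.49 there (adjusted p = 0.842, edgeR), and an interaction of 2.74 (standard error 0.928, adjusted p = 1). Tendon and proteoglycan lists had medians of 0.77 and 0.78 in immature mice, with 2 of 10 and 5 of 12 genes higher. Tnmd was at 85.1 ± 17.5 and 138 ± 29.4 CPM in immature mice, and its interaction was 1.63 (standard error 0.476, adjusted p = 1, edgeR). The interaction for Kera was 2.34 (standard error 0.574, adjusted p = 0.528, edgeR) and for Htra1 0.74 (standard error 0.199, adjusted p = 0.895, edgeR). None of these genes met the threshold for a difference between ages in edgeR.

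Myostatin was called higher in mature mice, while its means in immature mice differed by less than the SD at 5dpr. It was at 8.63 ± 2.24 and 7.78 ± 0.662 CPM in immature mice, with an interaction of 1.76 (standard error 0.428, adjusted p = 0.528, edgeR). Tspan2, a tetraspanin of glia and smooth muscle, had a log2 fold change of 0.90 in mature and -0.48 in immature mice, with an interaction of 1.38 (standard error 0.343, adjusted p = 0.528, edgeR). Its mature call was lost without 14dpr replicate 1 (adjusted p = 0.167), without 14dpr replicate 3 (adjusted p = 0.0757), without 5dpr replicate 1 (adjusted p = 0.174), without 5dpr replicate 3 (adjusted p = 0.0995) or without 5dpr replicate 4 (adjusted p = 0.0677), and with the sarcomere covariate (adjusted p = 0.0642). Hnrnpd, an RNA-binding protein, and Dapk2, a kinase of the death-associated family, were called in immature mice alone, with log2 fold changes of -1.23 and 0.90 there against 0.06 and -0.20 in mature mice. Their interactions had adjusted p-values of 0.895 and 0.528 in edgeR. Lyar, a nucleolar protein of growing cells, was called in mature mice alone, at -0.77 against 0.05, with an interaction adjusted p of 0.919 in edgeR. A difference between ages was thus not detected by edgeR for any of these genes. The B cell list gave 8 of 19 genes higher in immature mice with a median of 2.13, the adipocyte list 0 called with -0.38, and the cell cycle list 1 of 34 lower with -0.54. Imprinted genes gave 4 of 10 lower. Macrophage Cd163 fell at both ages, with a change of -1.66 on the log2 scale in immature mice (edgeR, adjusted p = 0.00128, standard error 0.318), and Il1b rose, by 2.38 in immature mice (standard error 0.419, adjusted p = 0.000502, edgeR).

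**Figure D5:**
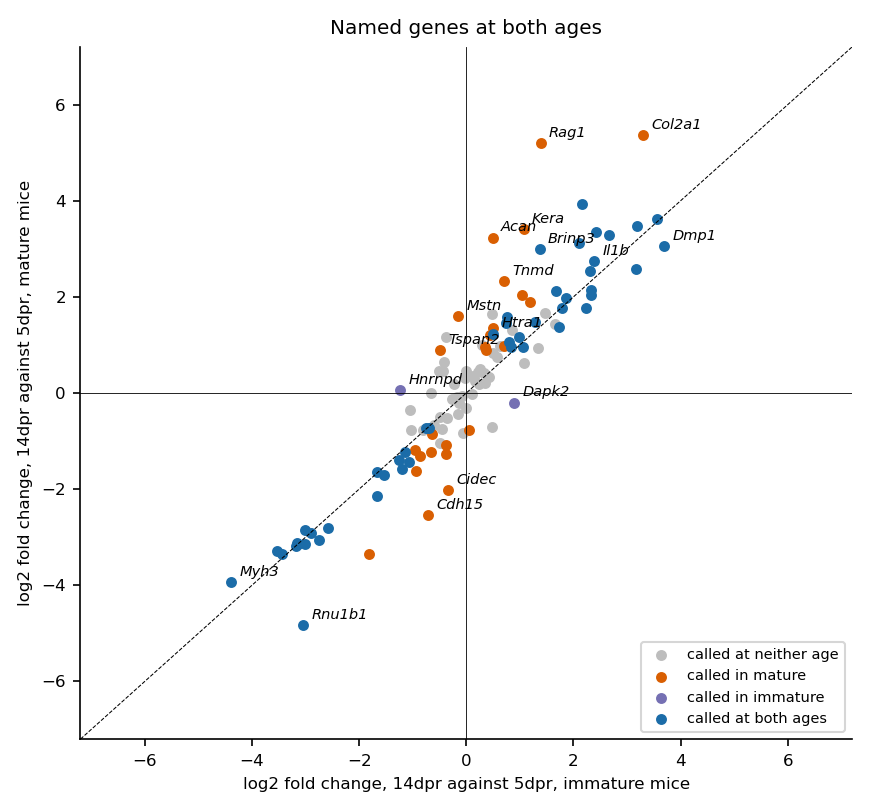
Log2 fold change (14dpr over 5dpr) of the named genes in mature (vertical) against immature mice (horizontal), with the line of equal change, and with Ihh left out because it is at 0 counts at mature 5dpr. Myh3 lies at -3.94 and -4.39, and Mstn at 1.60 and -0.15, and no gene drawn passed the test for a difference between ages in edgeR.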

How the data were processed

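Composite rib tissue of bone and intercostal muscle was measured by bulk RNAseq (TruSeq stranded libraries, 150 bp paired-end reads on a NovaSeq, in runs that the labels do not assign to libraries). The authors mapped reads to GRCm38 with STAR 2.5.2a and deposited read counts per gene, in a full table of 48733 genes and a filtered table of 21204 genes with equal counts. The authors also deposited a normalized CPM signal per gene, which equals the TMM CPM computed here (largest relative difference 4.99e-15) and was used for that check and for gene identifiers. Tools were R 4.3.3, edgeR 4.0.16, limma 3.58.1, DESeq2 1.42.0, Python 3.11.15, numpy 2.4.6, pandas 2.3.3 and matplotlib 3.10.9. All 39 libraries were fitted with TMM factors and edgeR's quasi-likelihood model with 10 groups, p-values were adjusted by Benjamini-Hochberg over the filtered table, and the standard error is the size of the log2 fold change over the root of F. The fit was tested on simulated data. Total counts per library bound the precision, and the replicate spread is the error given.

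Named genes were the 10 with the largest change in each direction among called genes, predicted genes aside, with a mean of at least 5 CPM and no overlap between stages, members of the 30 lists, genes with the smallest interaction p, and genes of the paper. The text gives a part of the genes so named. The members and lists were chosen with earlier results of these data known. The gene lists used the symbols of the tables, with older symbols matched through RefSeq synonyms, and Matn1 and Ahsp are not in the filtered table. Gene positions are from a GRCm38 annotation, and promoters from RefSeq. Alternatives were RLE factors, DESeq2, edgeR's own filter on the full table, the full table, the compared libraries alone, the replicate number as a block, the sarcomere list as a covariate, a minimum change of 1 on the log2 scale, and each library left out. Thinning to equal totals and leaving out the library with the fewest detected genes were added after the data had been seen.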

Additional observations from a re-analysis of the deposited data

Results flagged for a closer look

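In 149 sets of 4 replicates (named genes, list sums and the total count of mature 14dpr libraries), the gap between the highest or the lowest library and the next was compared with the range of the set, which sets apart about 1 set in 20 by chance. It passed the critical ratio in 4 sets. Kera stood at 34.2 CPM in 14dpr replicate 3, above 15.8 to 18.7 CPM in the other 3 libraries. Pecam1 stood at 212 CPM in replicate 2, below 249.5 to 255.5 CPM in the others. Cdon stood at 81.4 CPM in replicate 4, below 116 to 119 CPM, and Dlk1 at 51.2 CPM in replicate 1, above 24.5 to 27.5 CPM. The 4 values fell in 4 different libraries. Kera was called with or without any single library, whereas the call for Dlk1 was lost without replicate 1. Pecam1 and Cdon were not called. The cause of these values was not tested.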

How the results depend on the processing

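The mature count of 886 (414 higher, 472 lower, 46.7% of calls higher) was 849 with RLE factors (471 higher, 378 lower), 918 with edgeR's own filter (500 higher, 418 lower), 682 with the full table, 751 with the sarcomere covariate (369 higher, 382 lower) and 788 with thinned libraries (400 higher, 388 lower). More calls were thus higher in some settings and lower in others. DESeq2 called 1386 genes (799 higher, 587 lower, 57.6% higher) and included 865 of the 886 in the same direction. The full table gave 407 higher and 275 lower (59.7% higher), over 35481 genes with at least 1 count. With the compared libraries alone in the fit, 2589 genes were called (1153 higher, 1436 lower), 861 of them among the 886. Without the library with the fewest detected genes the counts were 1564 (697 higher, 867 lower). A minimum change of 1 on the log2 scale left 523 (263 higher, 260 lower). Leaving out a library gave 409 to 688 genes (192 to 375 higher, 205 to 313 lower), from fewer samples. Apart from those named here, the cause of the differences between settings was not tested.

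Same-numbered libraries of the stages had correlations of -0.0765, -0.112 and -0.0514 across genes in their deviations from the group means. Differently numbered libraries gave -0.147 to 0.169, so the replicate numbers gave no sign of a pairing. With 3 same-numbered pairs, whether such libraries share a batch was not tested. A block for the replicate number gave 603 calls (303 higher, 300 lower) in mature and 394 in immature mice, and 1 of the 21 glycolysis changes was positive with it. The settings listed with single genes and lists above leave this block out. In edgeR with the block, Cd79b (adjusted p = 0.0768), Tpi1 (0.0759), Loxl3 (0.0579) and Tagln (0.101) were among the list members not called. Boc (0.0757), Cidec (0.069) and Aurka (0.0633) were others. Called members numbered 1 in the adipocyte list, 1 in the B cell list and 3 in the cell cycle list.

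The immature count of 674 was 1029 with DESeq2, 1875 with the compared libraries alone, 402 with the sarcomere covariate, 1032 without the library with the fewest detected genes, and 341 to 612 with a library left out. The interaction count of 0 was 5 with DESeq2, 2 with the full table and 0 to 0 with a library left out.

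Of the values of named genes under all alternatives, 1722 kept their direction and side of the threshold, 110 were no longer called, 32 were called anew and 24 uncalled values moved, and none of the called genes changed direction. The counts of called list members stayed within 1.5 times in 369 cases and not in 111.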
